A study of Mus musculus with 6 samples.

Results

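Genes that mark smooth muscle cells and pericytes, the contractile cells around vessels and ducts, were followed in collecting duct cells sorted from newborn mouse kidneys. These 10 genes are the receptors Pdgfra and Pdgfrb, the contractile and filament genes Acta2, Tagln, Myh11, Cnn1, Actg2 and Des, and the pericyte genes Rgs5 and Cspg4. A probe was taken when its RefSeq accession maps to 1 of these symbols. This gave 10 probes, 1 for each gene, out of 55681 probes and 20887 named genes on the array. All 10 probes were bright enough to be tested, as were 29002 probes and 14585 genes in all.

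The MUT cells came from Hoxb7cre+; R26RtdTomato; Bdkrb2f/f mice and the WT cells from Hoxb7cre+; R26RtdTomato; Bdkrb2+/+ mice, all C57BL/6, salt-stressed and at postnatal day 1. Bdkrb2 encodes the bradykinin B2 receptor, and the Hoxb7 driver deletes it in the ureteric bud lineage, which forms the collecting duct and the lining of the ureter. Controls carry the same Cre driver and reporter as the mutants. Cells were sorted as positive for GFP and tdTomato, but the labels name no GFP allele. There were 3 MUT pools and 3 WT pools, and the labels call them biological replicates. The labels do not say how many mice make a pool, so p-values measure the spread between pools.

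Mural cells are not part of the ureteric bud lineage. Renal pericytes, mesangial cells and vascular smooth muscle arise from stromal progenitors, and the smooth muscle of the renal pelvis and ureter arises from the mesenchyme around the ureteric stalk. PDGF-B from endothelium acts on Pdgfrb of mural precursors, while Pdgfra marks interstitial mesenchyme and fibroblasts. In smooth muscle, serum response factor binds DNA sites called CArG boxes and, with myocardin or its relatives, switches on Acta2, Tagln, Myh11 and Cnn1.

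Promoter windows of 300 bases, from 250 before to 50 after the RefSeq start, were found for 6 of the 10 genes in a RefSeq table of build GRCm38.p6. Shown are those of Pdgfra, Acta2 and Rgs5, which rose in MUT pools, and that of Cnn1, a contractile gene without a called difference. Capitals mark CArG boxes with 1 base of their A/T core replaced, searched on both strands, and the lines run 5′ to 3′ on the strand of the gene. The windows are chr5:75152001-75152300 (+) for Pdgfra, chr19:34255324-34255623 (-) for Acta2, chr1:169655251-169655550 (+) for Rgs5 and chr9:22099003-22099302 (+) for Cnn1.
Pdgfra: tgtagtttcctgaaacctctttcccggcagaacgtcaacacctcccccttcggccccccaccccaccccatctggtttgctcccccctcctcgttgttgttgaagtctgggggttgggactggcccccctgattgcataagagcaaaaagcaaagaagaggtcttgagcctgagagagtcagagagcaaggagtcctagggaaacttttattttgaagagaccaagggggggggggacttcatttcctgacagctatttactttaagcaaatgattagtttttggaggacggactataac
Acta2: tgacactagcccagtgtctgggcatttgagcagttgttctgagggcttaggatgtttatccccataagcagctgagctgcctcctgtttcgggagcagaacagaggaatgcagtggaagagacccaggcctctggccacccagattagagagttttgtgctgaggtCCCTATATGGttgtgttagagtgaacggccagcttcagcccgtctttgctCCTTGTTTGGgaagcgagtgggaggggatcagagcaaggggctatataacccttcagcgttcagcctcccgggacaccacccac
Rgs5: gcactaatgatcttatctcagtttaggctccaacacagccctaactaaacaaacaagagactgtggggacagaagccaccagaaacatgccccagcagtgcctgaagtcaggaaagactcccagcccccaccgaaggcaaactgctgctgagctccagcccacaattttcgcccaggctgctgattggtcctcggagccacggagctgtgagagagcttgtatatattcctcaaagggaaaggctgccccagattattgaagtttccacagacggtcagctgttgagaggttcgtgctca
Cnn1: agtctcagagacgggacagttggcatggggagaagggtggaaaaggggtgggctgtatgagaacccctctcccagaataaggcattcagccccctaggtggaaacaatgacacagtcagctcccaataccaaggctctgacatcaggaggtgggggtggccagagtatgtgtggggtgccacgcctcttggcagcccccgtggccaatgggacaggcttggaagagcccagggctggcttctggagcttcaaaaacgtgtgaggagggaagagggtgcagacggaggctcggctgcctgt

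Acta2 held 2 such boxes, which begin at bases -84 and -34 from its RefSeq start. At most 1 replaced core base gave a match in 9.98% of 32851 mouse promoter windows, and 0.822% held at least 2. A box with no replaced base occurred in 1.63% of the windows and in 0 of the 6 found here. Des and Cspg4 also held no box of either kind. A match in letters is a description of the window and shows no binding.

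Each array carried Cy5-labelled RNA of 1 pool against Cy3-labelled RNA of WT pool 1, so a value is a log2 ratio to WT pool 1, and the array of WT pool 1 compares that RNA with itself. Ratios were normalised by loess, a curve that removes dye bias along the intensity range, and are thus relative to the typical probe. The median of all tested probes was 0.23 higher in MUT pools with each array centred on its median instead, and 0.95 higher relative to the spike-in probes, the array's control probes for added RNA. The mean log2 ratio of the spike-in probes, subtracted from each array, was -0.78, -0.64 and -0.26 in MUT pools 1 to 3. In WT pools 1 to 3 it was -0.07, 0.31 and 0.94. This shift varied within each group, and each of the 10 genes had an SE of 0.38 in that scaling. Between 27022 and 31310 probes per array were marked by the scanner software as well above background, and precision is limited by having 3 arrays per group. The single Bdkrb2 probe stayed near background on every array, and gives no check of the labels. On the slide, row 1 held the MUT pools with WT pool 1, and row 2 held the other WT pools. Markers of the labelled cell type were present: 14 of 15 collecting duct genes were tested (Scnn1g was too dim), and all 14 were well above background on all 6 arrays. These 14 were all lower in MUT pools, with a median difference of -1.73 on the log2 scale, or -0.78 relative to the spike-in probes. In that scaling 12 of the 14 were below 0, while Hoxb7 (0.26) and Epcam (0.05) were above it and not called. Of the 12, Aqp2, Scnn1b, Gata3, Cdh1 and Krt8 were not called there either (limma adjusted p from 0.0848 to 0.358). With slide row as a block, in which MUT is set against WT pool 1 alone, 11 of the 14 were called lower.

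Of the 10 mural and smooth muscle genes, 4 were higher in MUT pools at an adjusted p under 0.05 (limma, Benjamini-Hochberg over all tested probes), and 0 were lower. They are Pdgfra, Pdgfrb, Rgs5 and Acta2. Of all tested genes 14.0% were called higher, 18.8% lower and 32.8% in either direction (26.1% of probes), so a call was common on these arrays. The median difference, MUT minus WT, was 0.71 over the 10 genes and -0.02 over all tested genes. With slide row as a block, the median over the 10 genes was 0.23 and 1 of them, Pdgfra, was called, against 3.44% of all genes called higher in that fit and 10.9% in either direction.

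**Figure D1:**
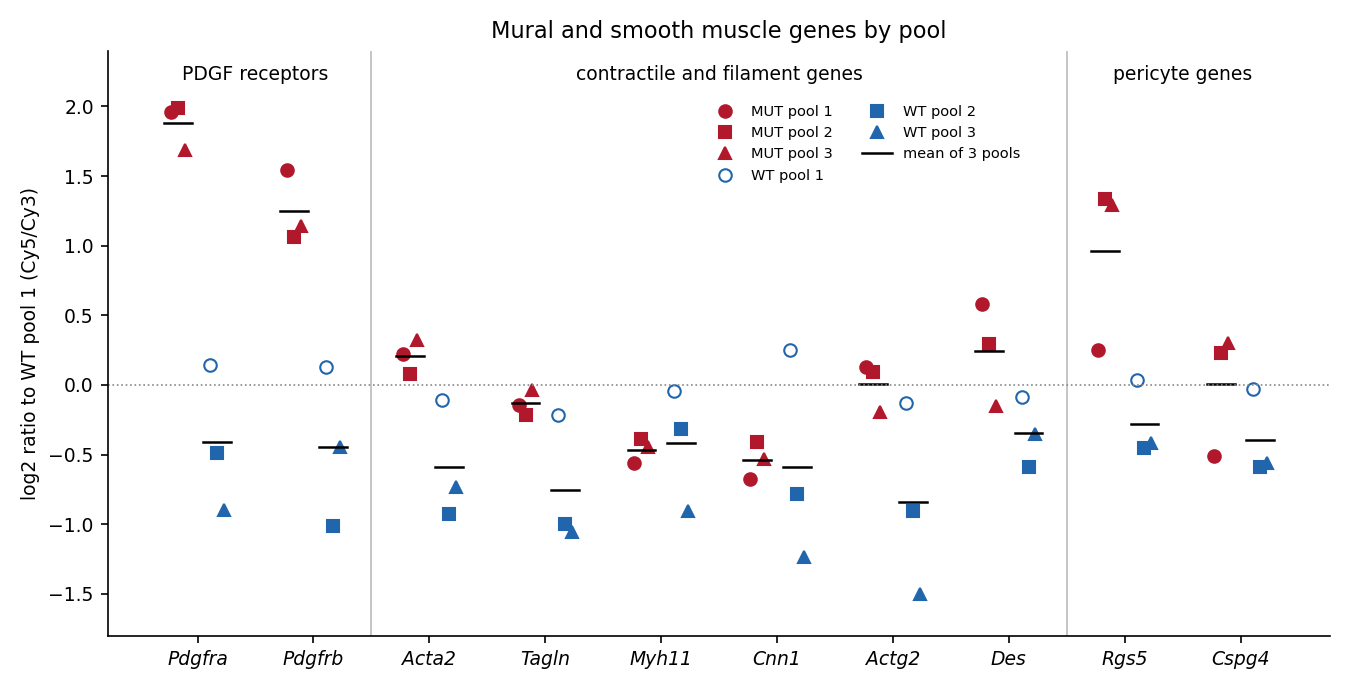
Log2 ratio of each of the 10 genes to WT pool 1, by pool, with MUT pools in red, WT pools in blue (WT pool 1, hybridised against itself, as an open circle) and the mean of 3 pools as a line. Pdgfra and Pdgfrb have all MUT pools above 1, and WT pools 2 and 3 lie below WT pool 1 for all 10 genes.

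Pdgfra, the receptor for PDGF-A and PDGF-C, had log2 ratios of 1.96, 1.99 and 1.68 in MUT pools 1 to 3, against 0.15, -0.49 and -0.89 in WT pools 1 to 3. The MUT pools lay close together and far above every WT pool. Before normalisation, the Cy5 signal of its probe, over 10 spots, averaged 2655, 2543 and 1797 in MUT pools 1 to 3, against 500, 232 and 199 in WT pools 1 to 3. Local background was 66.2 to 70.4, so the WT signals were low but above it. The group means were 1.88 ± 0.17 in MUT and -0.41 ± 0.52 in WT (SD, n = 3 each), a 4.89-fold difference (log2 2.29 ± 0.24 SE, limma adjusted p = 0.000719). The difference was 1.73 ± 0.22 (SE, adjusted p = 0.0144) with slide row as a block.

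Pdgfrb, the receptor for PDGF-B on pericytes and mesangial cells, had log2 ratios of 1.54, 1.06 and 1.14 in MUT pools 1 to 3, against 0.13, -1.01 and -0.45 in WT pools 1 to 3. All MUT pools were above all WT pools, and WT pool 2 was the lowest. The means were 1.25 ± 0.26 in MUT and -0.44 ± 0.57 in WT (SD, n = 3 each). This was a 3.23-fold difference (log2 1.69 ± 0.27 SE, limma adjusted p = 0.0038). The adjusted p was 0.0623 with slide row as a block, where the difference was 1.12 ± 0.28 (SE).

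Of the 4 PDGF ligands 1 rose and 2 fell. Pdgfc, which acts on Pdgfra, rose in MUT pools, with a difference of 1.12 ± 0.18 (SE, limma adjusted p = 0.00351). It was also 1.12 with slide row as a block, but not called (adjusted p = 0.0586). Its log2 ratios were 1.51, 1.27 and 0.79 in MUT pools 1 to 3, against 0.07, 0.13 and 0.02 in WT pools 1 to 3, so its WT pools lay close together, unlike those of the receptors. Pdgfb, the ligand that endothelium uses to recruit pericytes, fell by 0.95 ± 0.11 (SE, adjusted p = 0.000907). Its log2 ratios were -1.05, -1.05 and -0.91 in MUT pools 1 to 3, against -0.16, -0.08 and 0.08 in WT pools 1 to 3. Pdgfa fell by 0.75 ± 0.13 (SE, adjusted p = 0.00438). With slide row as a block both falls kept their call, at -0.84 for Pdgfb and -0.91 for Pdgfa. Relative to the spike-in probes neither was called, at 0.01 for Pdgfb (adjusted p = 0.985) and 0.20 for Pdgfa (adjusted p = 0.625). These falls are thus relative to the typical probe. Pdgfd had a difference of -0.20 that was not called (adjusted p = 0.16).

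Among the 6 contractile and filament genes 1 rose, 0 fell and 5 were not called, with a median difference of 0.61. Acta2, smooth muscle alpha actin, had log2 ratios of 0.23, 0.08 and 0.32 in MUT pools 1 to 3, against -0.11, -0.93 and -0.73 in WT pools 1 to 3. The groups did not overlap, but WT pool 1 lay nearer to the MUT pools than to the other WT pools. Its means were 0.21 ± 0.12 in MUT and -0.59 ± 0.43 in WT (SD, n = 3 each), a 1.74-fold difference (log2 0.80 ± 0.20 SE, limma adjusted p = 0.0244). The 10 spots of this probe had an SD of at most 0.0647 on an array, which covers spot noise only. With slide row as a block the difference was 0.32 ± 0.17 (SE, adjusted p = 0.324). The call was also lost without MUT pool 3 (adjusted p = 0.0684), without WT pool 2 (0.0743) and without WT pool 3 (0.103).

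Tagln, the actin-binding protein SM22, had log2 ratios of -0.14, -0.21 and -0.03 in MUT pools 1 to 3, against -0.22, -1.00 and -1.05 in WT pools 1 to 3. MUT pools were all above WT pools, with MUT pool 2 just above WT pool 1. The difference of 0.63 ± 0.22 (SE) was not called (limma adjusted p = 0.0681). Without WT pool 1 it was 0.90 (adjusted p = 0.00523), and with slide row as a block 0.09 (adjusted p = 0.781).

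Actg2, the gamma actin of visceral smooth muscle, had log2 ratios of 0.13, 0.10 and -0.20 in MUT pools 1 to 3, against -0.13, -0.91 and -1.50 in WT pools 1 to 3. MUT pool 3 fell below WT pool 1, and WT pool 3 was far below all others. The difference was 0.85 ± 0.31 (SE, limma adjusted p = 0.0772), larger than that of Acta2 but with a wider error. It was 1.21 without WT pool 1 (adjusted p = 0.0114), 0.53 without WT pool 3 (adjusted p = 0.213) and 0.14 with slide row as a block (adjusted p = 0.801). Des, the intermediate filament desmin, had log2 ratios of 0.58, 0.29 and -0.15 in MUT pools 1 to 3, against -0.09, -0.59 and -0.35 in WT pools 1 to 3. Its probe was dim, and was not well above background in WT pool 2. The difference of 0.59 ± 0.20 (SE) was not called (adjusted p = 0.0707), and without MUT pool 3 it was 0.78 (adjusted p = 0.0233). It was 0.41 without MUT pool 1 (adjusted p = 0.0894) and 0.33 with slide row as a block (adjusted p = 0.539).

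Myh11 and Cnn1 were the 2 genes with all MUT pools below WT pool 1. Myh11, the smooth muscle myosin heavy chain, had log2 ratios of -0.56, -0.39 and -0.45 in MUT pools 1 to 3, against -0.05, -0.31 and -0.90 in WT pools 1 to 3. The MUT pools fell inside the range of the WT pools, and the difference was -0.04 ± 0.20 (SE, limma adjusted p = 0.895). Cnn1, the actin-binding protein calponin 1, had log2 ratios of -0.67, -0.41 and -0.53 in MUT pools 1 to 3, against 0.25, -0.78 and -1.23 in WT pools 1 to 3. WT pool 1 was highest and WT pools 2 and 3 lowest, with the MUT pools between them. The difference was 0.05 ± 0.33 (SE, adjusted p = 0.93), and with slide row as a block -0.79 ± 0.22 (SE, adjusted p = 0.0794). Relative to the spike-in probes the differences were 0.91 for Myh11, which turned its sign, and 1.00 for Cnn1.

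**Figure D2:**
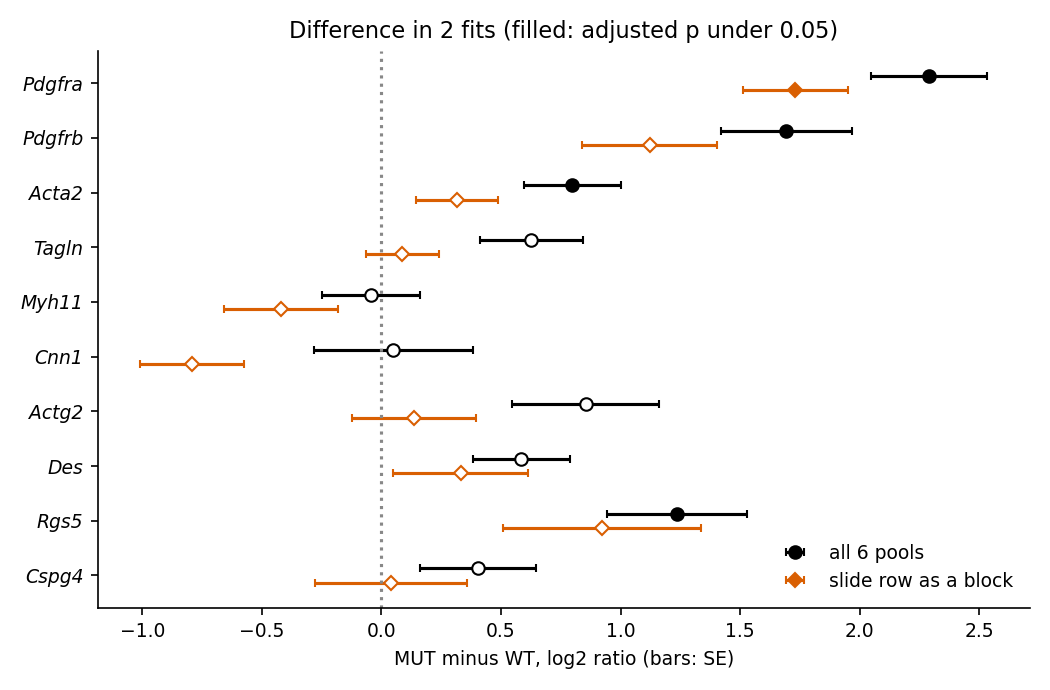
Difference in log2 ratio, MUT minus WT, for each gene with its SE, in the fit of all 6 pools (black) and in the fit with slide row as a block (orange). Filled symbols passed an adjusted p of 0.05. Pdgfra is filled in both fits, and Cnn1 moves from 0.05 to -0.79.

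SRF and its 3 cofactors had no call, with a median difference of -0.04. Srf differed by 0.24 (limma adjusted p = 0.144), Mrtfa by -0.23 (adjusted p = 0.118), Mrtfb by 0.14 (adjusted p = 0.439) and Myocd by -0.24 (adjusted p = 0.476). Myocd, the cofactor restricted to heart and smooth muscle, was -0.89 in MUT pool 1 but -0.05 and 0.00 in MUT pools 2 and 3, against 0.00, -0.23 and 0.01 in WT pools 1 to 3. The Myocd probe was dim, being well above background in 3 WT pools but only 2 MUT pools, so it was tested through the WT pools. The 6 actin genes did not move as 1 group. Acta1, skeletal muscle alpha actin, rose by 0.81 (adjusted p = 0.0176), while Actg1, a cytoplasmic actin of all cells, fell by 0.49 (adjusted p = 0.0177). Relative to the spike-in probes Actg1 was 0.47 higher and not called. Neither Acta1 nor Actg1 was called with slide row as a block, at 0.38 for Acta1 and -0.50 for Actg1. Actb differed by -0.51 (adjusted p = 0.238) and Actc1, whose probe stayed near background in all WT pools, by 0.16 (adjusted p = 0.411). Actins are near-identical in coding sequence, and whether a probe reads only its own actin was not tested.

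Of 22 other smooth muscle contractile genes, 18 were tested, of which 6 rose and 2 fell, with a median difference of 0.29. The largest rises were in Tpm2, a tropomyosin (1.51 ± 0.22 SE, limma adjusted p = 0.00259), Cnn2, a calponin found beyond smooth muscle (1.37 ± 0.19 SE, adjusted p = 0.00193), Ppp1r14a, an inhibitor of myosin phosphatase (1.22 ± 0.13 SE, adjusted p = 0.000631), and Myl9, a myosin regulatory light chain (0.93 ± 0.24 SE, adjusted p = 0.0253). Tagln2 fell by 0.41 (adjusted p = 0.0294) and Myl6 fell by 0.34 (adjusted p = 0.0459), both widely expressed. Relative to the spike-in probes both were above 0, at 0.54 and 0.62, and neither was called. Lmod1, Pln, Casq2 and Kcnmb1 were too dim to be tested. With slide row as a block the list's median was 0.00, 3 genes (Tpm2, Cnn2 and Ppp1r14a) were called higher and 0 lower, and Myl9 was at 0.38 (adjusted p = 0.344).

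Rgs5, a regulator of G protein signalling that marks pericytes, rose, with log2 ratios of 0.25, 1.34 and 1.29 in MUT pools 1 to 3, against 0.04, -0.46 and -0.41 in WT pools 1 to 3. MUT pool 1 lay near WT pool 1, about 1 log2 unit below the other MUT pools. The means were 0.96 ± 0.62 in MUT and -0.28 ± 0.27 in WT (SD, n = 3 each), a 2.36-fold difference (log2 1.24 ± 0.29 SE, limma adjusted p = 0.0178). The call was lost without MUT pool 2 (adjusted p = 0.059), MUT pool 3 (0.0539), WT pool 2 (0.0659) or WT pool 3 (0.0785), and with slide row as a block (0.24).

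Cspg4, the NG2 proteoglycan of the pericyte surface, had log2 ratios of -0.51, 0.23 and 0.30 in MUT pools 1 to 3, against -0.03, -0.59 and -0.56 in WT pools 1 to 3. MUT pool 1 again stood apart, here among the low WT pools. The difference was 0.40 ± 0.24 (SE, limma adjusted p = 0.261). It was 0.66 without MUT pool 1 (adjusted p = 0.0126), 0.25 without MUT pool 3 (adjusted p = 0.517) and 0.04 with slide row as a block (adjusted p = 0.956). MUT pool 1 was the lowest MUT pool for both pericyte genes, and also for Myh11 and Cnn1. It stood apart over the whole array as well: log2 ratios differed with an SD of 0.446 from MUT pool 2 and 0.445 from MUT pool 3, against 0.207 between MUT pools 2 and 3.

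Among 17 other pericyte and mesangial genes, 16 were tested, of which 7 rose and 4 fell, with a median difference of 0.29. Well above background on all 6 arrays were 14 of the 16. The risers Vtn and Kcnj8 were not among these 14, being well above background in 0 and 2 WT pools. They were tested through the MUT pools only. Both count in the 7 rises, and Kcnj8 is also among the calls with slide row as a block. With slide row as a block 4 were called higher and 0 lower, so all 4 falls lost their call (adjusted p from 0.0513 for Gja4 to 0.149 for Anpep). Itga8, an integrin of mesangial cells and of the nephrogenic mesenchyme, rose by 2.50 ± 0.22 (SE, limma adjusted p = 0.000448), slightly more than Pdgfra. Heyl, a target of Notch signalling in mural cells, rose by 1.65 (adjusted p = 0.000857), Serpine2, a protease inhibitor, by 1.32 (adjusted p = 0.000457) and Abcc9, a subunit of the vascular ATP-sensitive potassium channel, by 1.10 (adjusted p = 0.00734, and 0.133 with slide row as a block). Gja4, a connexin of vessels, fell by 1.24 (adjusted p = 0.00248). Anpep, an aminopeptidase of pericytes and proximal tubule, fell by 0.74 (adjusted p = 0.0233), Ren1, renin, by 0.61 (adjusted p = 0.00476), and Angpt1, a ligand that pericytes make for endothelium, by 0.54 (adjusted p = 0.0248). Relative to the spike-in probes the last 3 were above 0, at 0.22, 0.35 and 0.42, and Gja4 was at -0.29, with none of these called. With slide row as a block the falls stayed below 0, at -0.90 for Gja4, -0.80 for Anpep, -0.53 for Ren1 and -0.68 for Angpt1. The list's median was then 0.26. Rgs4 was too dim to be tested.

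Of 9 regulators of ureteral smooth muscle, 8 were tested, 3 rose and 0 fell, with a median difference of -0.08. The 3 were Tcf21, a transcription factor of stromal mesenchyme, at 2.46 (limma adjusted p = 0.00118), Gata6, a transcription factor of vascular smooth muscle, at 1.43 (adjusted p = 0.00123), and Bmp4, a signal of the mesenchyme around the ureter, at 0.58 (adjusted p = 0.0176). Bmp4 was at 0.66 and not called with slide row as a block (adjusted p = 0.111), while Tcf21 and Gata6 were. Tbx18 was too dim to be tested.

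The WT pools differed among themselves in these genes. WT pools 2 and 3 were both below WT pool 1 for 10 of 10 genes, against 40.8% of all tested genes. For 8 of the 10 genes the gap was at least 0.3 in both pools, a limit chosen after the values were seen, against 4.44% of all tested genes. Over the 10 genes, the median log2 ratio was 0.18, 0.16 and 0.14 in MUT pools 1 to 3, against -0.04, -0.68 and -0.81 in WT pools 1 to 3. All MUT pools exceeded all WT pools for 5 of the 10 genes, against 24.2% of all tested genes (52.6% had no overlap in either direction). All MUT pools exceeded WT pool 1 for 5 genes, against 32.5% of all tested genes. In both counts these are Pdgfra, Pdgfrb, Acta2, Tagln and Rgs5. As WT pool 1 was the highest WT pool for all 10 genes, both counts hold the same condition and are not separate results. Leaving WT pool 1 aside, all MUT pools were above WT pools 2 and 3 for 9 genes, against 28.7% of all tested genes, Myh11 being the exception. The range over pools was wider in WT than in MUT for 7 genes, with Des, Rgs5 and Cspg4 wider in MUT. WT pools 2 and 3 share slide row 2, and WT pool 1 is also the RNA in Cy3, so row, pool and self-hybridisation cannot be told apart here.

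**Figure D3:**
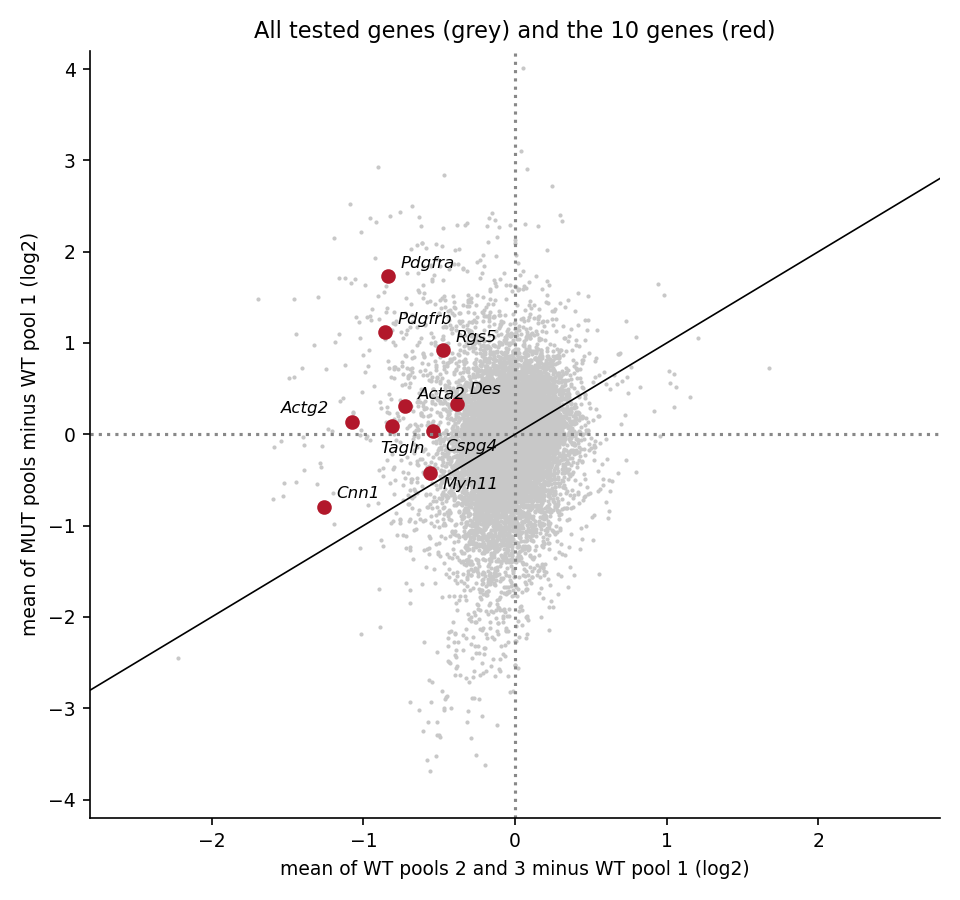
For each tested gene, the mean of the 3 MUT pools minus WT pool 1 (vertical, log2) against the mean of WT pools 2 and 3 minus WT pool 1 (horizontal, log2), with a line where both are equal and the 10 genes in red. All 10 lie left of 0, Pdgfra, Pdgfrb and Rgs5 lie highest, and Cnn1 lies lowest.

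Both axes of this plot subtract WT pool 1 and so share its error. MUT minus WT pool 1 was 1.73 for Pdgfra, 1.12 for Pdgfrb and 0.92 for Rgs5. For the other 7 genes it lay between -0.79 (Cnn1) and 0.33 (Des). On the horizontal axis the 10 genes lay between -1.26 (Cnn1) and -0.38 (Des).

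Markers of other cell types also moved between the groups. Renal stroma genes rose in 8 of 11 tested cases and fell in 0, with a median difference of 1.62. The blocked fit on slide row called 4 higher, with a median difference of 1.09. Their median log2 ratio was 1.04, 1.31 and 1.09 in MUT pools 1 to 3, against 0.12, -0.59 and -0.80 in WT pools 1 to 3. The PDGF receptors also had WT pool 1 above WT pools 2 and 3, as did the leukocyte, other smooth muscle and other pericyte and mesangial lists. The largest rises were in Cdh11, a mesenchymal cadherin (2.95), Meis1, a stromal homeobox factor (2.94), and the fibrillar collagens Col3a1 (2.45) and Col1a1 (2.06), whose limma adjusted p lay between 0.000413 and 0.00755. Col1a1 lost its call with slide row as a block (1.09, adjusted p = 0.0754). Dpt was too dim to be tested. Dcn (0.54), Lum (0.34) and Fbln2 (-0.47) were not called. For Fbln2 all MUT pools lay below all WT pools. With slide row as a block the differences of Dcn, Lum and Fbln2 were -0.39, -0.68 and -0.19. All 11 stroma genes tested were well above background on all 6 arrays. The part of stromal cells in the differences of the 10 genes was not tested, and in these bulk pools more cells of a type and more RNA per cell cannot be told apart.

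Leukocyte genes rose in 8 of 10 cases, with a median of 0.88, 0.89 and 0.26 in MUT pools 1 to 3, against -0.08, -0.43 and -0.69 in WT pools 1 to 3. However, Ptprc, which encodes CD45, fell by 0.43 (limma adjusted p = 0.021). Relative to the spike-in probes Ptprc was 0.53 higher and not called. The blocked fit called 0 leukocyte genes in either direction, with a median difference of 0.68, against 0.99 without the block. Nephron progenitor genes rose in 8 of 9 cases, with a median difference of 2.13, and 4 of 9 were called higher with slide row as a block. Endothelial genes fell in 10 of 12 cases, with medians of -0.80, -0.84 and -0.83 in MUT pools 1 to 3, against -0.05, 0.07 and 0.04 in WT pools 1 to 3. Their median difference was -0.93, or -0.84 with slide row as a block and 0.03 relative to the spike-in probes. Only 4 of the 12 were called lower with slide row as a block. Intercalated cell genes, of another collecting duct cell type, fell in 6 of 6 cases (median -2.31, or -1.36 relative to the spike-in probes). With slide row as a block the median difference was -2.55 for intercalated cell genes and 1.59 for nephron progenitor genes. Every tested gene of the leukocyte, endothelial, nephron progenitor and intercalated cell lists was well above background on all 6 arrays. The part of these cells in the differences of the 10 genes was not tested.

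**Figure D4:**
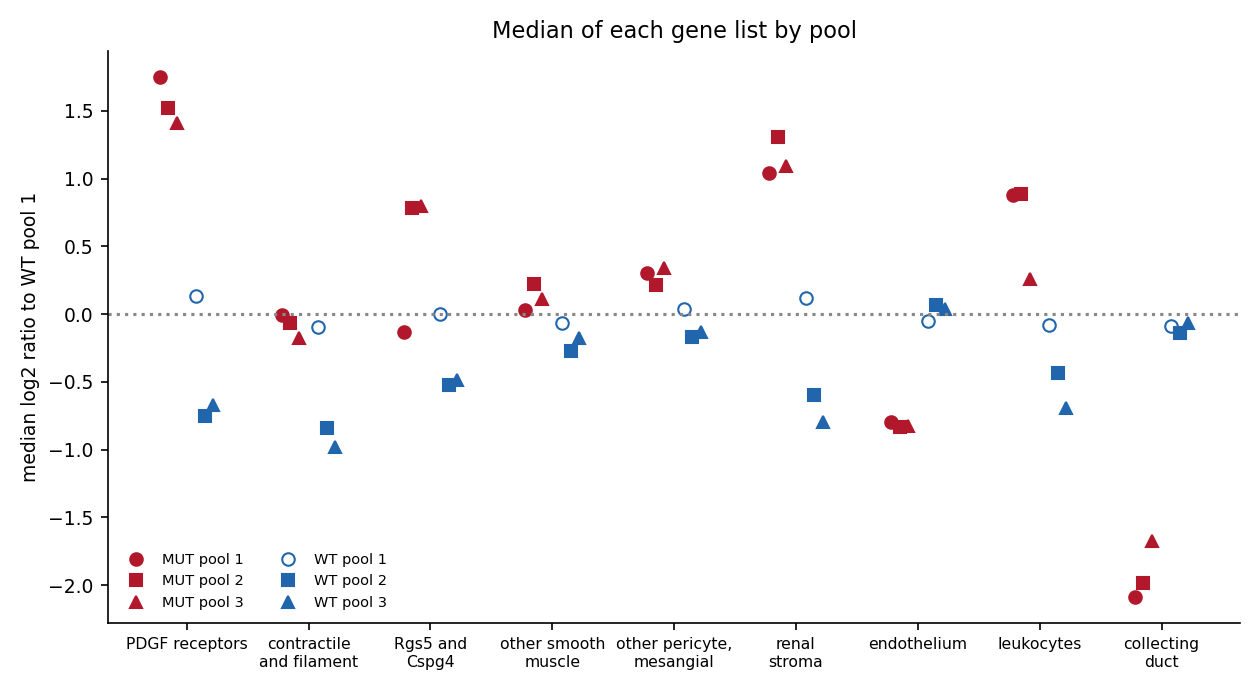
Median log2 ratio to WT pool 1 over the tested genes of each list, by pool, with MUT pools in red and WT pools in blue (WT pool 1 as an open circle). PDGF receptors, renal stroma, leukocytes, other smooth muscle genes and other pericyte and mesangial genes have the MUT pools highest and WT pools 2 and 3 lowest. Contractile genes have MUT pools beside WT pool 1, and collecting duct genes have MUT pools near -2.

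The genes most like each called gene were found by the root mean square difference in log2 ratio over the 6 arrays, as a description. For Pdgfra they were Pdgfrl (0.139), Unc5c (0.159) and Lrrc17 (0.162). For Pdgfrb they were Zeb2 (0.203), Mrvi1 (0.205) and Pdlim2 (0.231). For Acta2 they were Cpn1 (0.107), Myl9 (0.134) and Acta1 (0.145). Myl9 and Acta1 are a smooth muscle myosin light chain and another alpha actin, while Cpn1, the closest, is on none of the lists here. Whether the Acta1 probe also reads Acta2 was not tested. For Rgs5 they were Rnf150 (0.148), Hoxc11 (0.189) and Cfhr2 (0.218). Myl9, which also has WT pool 1 well above WT pools 2 and 3, had log2 ratios of 0.17, 0.30 and 0.41 in MUT pools 1 to 3, against -0.09, -1.15 and -0.68 in WT pools 1 to 3.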

How the data were processed

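Each deposited scanner file holds spot intensity of 1 array in Cy5 and Cy3, with local background, per the file headers. Agilent Feature Extraction 10.7.3.1 made them, per the submitters' processing notes. The deposited table of values holds the scanner software's log10 ratio, which the authors rounded to within 0.00499 of the scanner files, with a median of 0 on each array.

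Median signals were corrected by normexp (offset 50). Log2 ratios were normalised by loess, control spots having weight 0. Then control spots and 196 to 403 outlier spots per array were dropped, and the remaining spots of each probe were averaged. Saturated spots numbered 0. Probes well above background in Cy5, at over 0.5 of their spots, on all 3 arrays of a group were kept (29002 of 55681, 52.1%). The fit used limma 3.58.1 (lmFit and eBayes, R 4.3.3, data.table (version 1.17.8)), 3 MUT against 3 WT arrays, with p-values adjusted over all tested probes (Benjamini-Hochberg) and a call under 0.05. Figures used Python 3.11.15 and matplotlib 3.10.9. The pipeline was tested on simulated data.

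Unversioned RefSeq accessions named 27509 probes through a table of GRCm38.p6. The file headers name another build, so probes have no coordinates here. Except for the 10 genes, which have 1 probe each, a gene is its brightest tested probe. Counts of pools that do not overlap cover the 14558 genes with a value on every array.

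Members and lists were chosen with earlier results of these data known. Named are the 10 genes, all PDGF ligands, SRF cofactors and actins, up to 4 largest called rises and falls of other lists, untested list genes, and the 3 genes most like each of Pdgfra, Pdgfrb, Acta2 and Rgs5. Ptprc, Hoxb7, Epcam, Vtn, Kcnj8, Dcn, Lum, Fbln2, Aqp2, Scnn1b, Gata3, Cdh1 and Krt8 were named after their values were seen. The alternatives, given at the end, covered background correction, normalisation, the value table, dim probes, blocks for pool number and slide row, eBayes settings, array weights and each pool left out.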

Additional observations from a re-analysis of the deposited data

How the results depend on the processing

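Pdgfra was called in all 19 alternatives, with differences of 1.73 to 3.24, and Pdgfrb in 18 of 19. Acta2 kept its call in 15 of 19 and Rgs5 in 14 of 19. The number of the 10 genes called was 4, against 10 with spike-in probes, 1 with slide row as a block and 2 to 6 when 1 pool was left out (2 without WT pool 2 and 2 without WT pool 3). The number of probes called was 7584, against 18935 with spike-in probes (98.9% of them higher, against 44.2%), 2194 with slide row as a block (31.5% higher) and 3831 to 9536 when 1 pool was left out. In the same order, these were 26.1%, 65.3%, 7.56% and 13.2% to 32.9% of the tested probes. With median centring 77.3% of called probes were higher. Calls with spike-in probes share 1 shift per array, so the 10 gene calls there are not 10 separate results. The median difference of the 10 genes was 0.71, and became 1.12 with the scanner's processed signals and with the authors' value table, 1.06 with median centring, 1.67 with spike-in probes, 0.23 with slide row as a block, and 0.55 to 0.97 when 1 pool was left out. Myh11, near 0, changed sign with normexp offset 0 (0.034), processed signals (0.22), median centring (0.19), spike-in probes (0.91), Cy5 alone (0.12), the value table (0.22), array weights (0.037) and pools left out (-0.29 to 0.14). Cnn1 changed sign with Cy5 alone (-0.021), slide row as a block (-0.79) and pools left out (-0.27 to 0.47). The cause was not tested.

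The pools share only a number. Deviations from the group means correlated at 0.143, 0.0723 and 0.197 over probes between same-numbered MUT and WT pools. For each MUT pool this was its highest correlation with a WT pool. The log2 ratios themselves differed least from WT pool 2 for every MUT pool (SD 0.635, 0.500 and 0.445 for MUT pools 1 to 3). With pool number as a replicate block 6 of the 10 genes were called (4 without), Actg2 (adjusted p = 0.0297) and Des (0.0384) being added, and 7245 probes. Those probes were 25% of the tested probes, against 26.1% without the block. Des was too dim for the filter that asks for all 6 arrays. Using the mean over probes cannot change the 10 genes, which have 1 probe each. Dim probes, such as those of Des and Myh11, have signals nearest to background, which limits their ratios.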
